A study of Mus musculus with 10 samples.

Results

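The ON bipolar signalling genes are a set of 10 that carry the light response from photoreceptors to ON bipolar cells, namely Grm6, Trpm1, Nyx, Gpr179, Lrit3, Rgs7, Rgs11, Gnao1, Pcp2 and Prkca. They were taken by a fixed list of symbols that uses no measured value, though it was chosen with earlier results of these data known. Each of the 10 was found among the 24736 gene symbols of the mRNA table. All 10 also passed the filter on low values, as did 18988 genes in all. Whole eyeballs of 4-week-old female mice of the outbred Kunming stock were the source of every library. Blue light libraries A, B and C (n = 3) were from mice kept in a dark container under an 18 W blue lamp, and natural light libraries A and B (n = 2) were from control mice. The titles of both groups carry day 14, and microRNA libraries with the same letters were made for both groups. The labels do not say whether each library is a separate animal, and p-values therefore measure only how far these samples spread, which may be technical.

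ON bipolar cells are interneurons of the retina that are depolarised when light lowers glutamate release from rods and cones. In the dark, glutamate holds the metabotropic receptor mGluR6 (Grm6) active, and the G protein Go, whose alpha subunit is made from Gnao1, keeps the cation channel TRPM1 closed. When light comes on, RGS proteins held at the dendritic tip by GPR179 switch Go off and the channel opens. Loss of Grm6, Trpm1, Nyx, Gpr179 or Lrit3 causes complete congenital stationary night blindness, in which rods work and their signal fails to reach these cells.

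Under blue light the receptor, channel and RGS genes did not pass edgeR's test, and Prkca, the kinase used as the marker of rod bipolar cells, was the only one of the 10 that passed in edgeR and in limma-voom. Prkca fell to 254 ± 24.0 CPM (counts scaled to library size) under blue light (SD, n = 3), against 441 ± 5.89 CPM under natural light (SD, n = 2). In edgeR 0 of the 10 passed in the upward direction, where 2 had an unadjusted p under 0.05, and DESeq2 called 3 of the 10, Nyx as higher and Lrit3 and Prkca as lower. Lrit3, a leucine-rich repeat protein of this synapse, stood at 29.1 ± 5.41 CPM under blue light and 53.1 ± 5.47 CPM under natural light, a fold close to that of Prkca that missed the threshold in edgeR and passed it in DESeq2. Of their 11 partner genes 5 passed the test, against 2.22% of all tested genes, and 4 of those 5 were lower under blue light.

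CPM values were scaled by the TMM method, and a positive log2 fold change (log2FC) means a higher level under blue light. The standard error (SE) was derived from the F statistic of edgeR's quasi-likelihood test (size of the log2FC over the root of F), so it restates that test. Adjusted p-values come from that test with Benjamini-Hochberg adjustment over all 18988 genes, at a threshold of 0.05. The 95% intervals are those of single genes and are not adjusted for the number of genes tested. By this rule 2.22% of all tested genes were called, 0.664% higher and 1.55% lower under blue light. The 10 genes had 0 higher and 1 lower call, and their median log2FC was 0.12, against -0.0056 over all tested genes. In edgeR 4 of the 10 had an unadjusted p under 0.05, 2 of them higher, as did 3094 of all 18988 tested genes in either direction. Counts at an unadjusted p under 0.05 in the lists below are to be read beside that number. In 7 of the 10 the groups did not overlap, as in 35.6% of all tested genes. Limma-voom called 2.41% of all genes, with Prkca alone of the 10, and DESeq2 called 9.67% of the genes it tested, with Nyx, Lrit3 and Prkca. Scaled by library totals, edgeR called 124 genes higher and 150 lower, against 126 higher and 295 lower with TMM.

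The libraries held between 87071487 and 107660103 estimated counts, and the 10 genes summed to 1540, 1629 and 1817 CPM in blue light libraries A, B and C and 1721 and 1675 CPM in natural light libraries A and B. The ribosomal precursor transcript Rn45s took 10.8%, 8.69% and 14.4% of blue light libraries A, B and C and 4.30% and 14.1% of natural light libraries A and B. The level of 10 skeletal muscle genes also differed within groups, with summed CPM of 731, 319 and 318 in the blue light libraries and 293 and 784 in the natural light libraries. Of those 10 muscle genes, 8 lens genes and 4 tested red blood cell genes edgeR, DESeq2 and limma-voom called 0, and 0, 0 and 2 of them had an unadjusted p under 0.05 in edgeR. Whole eyeballs mix the retina with other tissues, and in such bulk samples fewer cells of a type and less RNA per cell cannot be told apart. No levels are compared between genes, because transcript lengths were not used here.

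**Figure D1:**
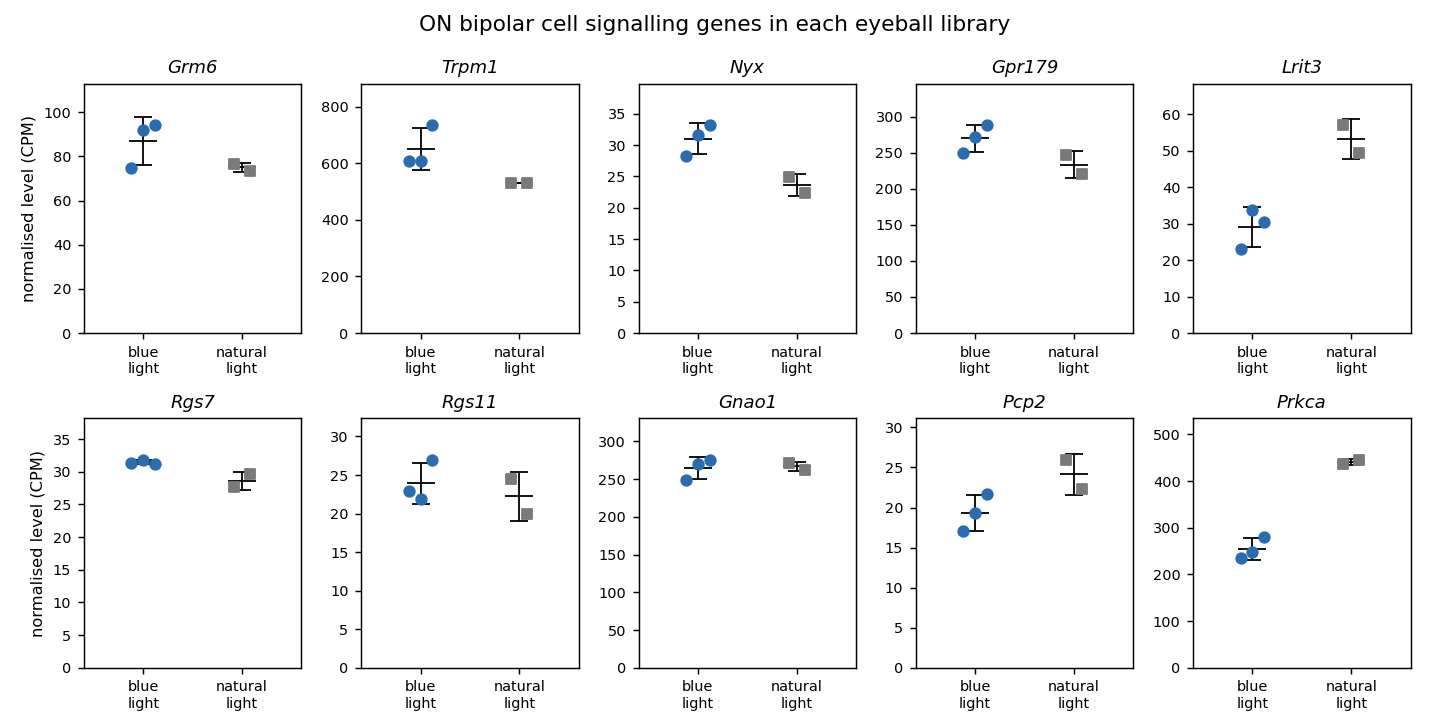
Normalised level (CPM) of each of the 10 ON bipolar signalling genes in every mRNA library, with blue light libraries as circles and natural light libraries as squares; each axis starts at 0, bars show the mean and SD. Both Lrit3 and Prkca have all 3 blue light libraries below both natural light libraries by a wide gap, while Grm6, Rgs11 and Gnao1 overlap between the groups.

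The receptor gene Grm6, on chromosome 11 from 50850369 to 50866208 (GRCm38, the assembly also called mm10), had 74.6, 92.0 and 94.1 CPM in blue light libraries A, B and C, against 76.4 and 73.6 CPM in natural light libraries A and B. Blue light library A lay between the natural light libraries, and the groups overlapped. The log2FC was 0.21 (SE 0.12, 95% interval -0.078 to 0.50, adjusted p = 0.446), so a rise or a small fall are both within the interval. Grm6 is the only metabotropic glutamate receptor of ON bipolar dendrites, and of the 8 genes of its family 0 passed in edgeR, 1 had an unadjusted p under 0.05, and 0 passed in DESeq2 or limma-voom. In that family 6 had a positive log2FC, and the smallest p belonged to Grm8, a presynaptic receptor, with an adjusted p of 0.180 at a log2FC of -0.49.

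Gnao1, on chromosome 8 from 93810153 to 93969388, encodes the alpha subunit of Go and is also used by many other neurons. It had 249, 270 and 275 CPM in blue light libraries A, B and C, against 271 and 262 CPM in natural light libraries A and B. The groups overlapped, and the log2FC was -0.011 (SE 0.074, 95% interval -0.19 to 0.17, adjusted p = 0.965). This was the smallest log2FC in size among the 10 genes, and its sign turned positive under DESeq2's size factors, library totals and scaling to amacrine and ganglion cell genes. Among the 7 related alpha subunit genes 1 was called, the rod transducin Gnat1, whose log2FC was -1.70 (SE 0.22, adjusted p = 0.0258). DESeq2 called 2 more, Gnat2 and Gnaz, both lower.

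Pcp2, on chromosome 8 from 3623369 to 3625547, encodes a small GoLoco protein that binds Go and modulates the rod bipolar response. Its level was 17.1, 19.3 and 21.6 CPM in blue light libraries A, B and C, against 25.9 and 22.4 CPM in natural light libraries A and B. Every blue light library lay below both natural light libraries, the nearest by less than 1 CPM, and the log2FC was -0.32 (SE 0.13, adjusted p = 0.317). Its annotated span overlaps that of Pet100, which held 52.1% of the counts of the pair, and the sources used here do not say whether counting used strand. With the pair summed the log2FC was -0.17 (adjusted p = 0.367). The other GoLoco genes, Gpsm1, Gpsm2 and Gpsm3, had log2FC of -0.51, -0.61 and -0.37, and of the 4 edgeR called 0, with 2 at an unadjusted p under 0.05, limma-voom called 0 and DESeq2 called Gpsm1.

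The channel gene Trpm1, on chromosome 7 from 64153835 to 64269772, had 610, 609 and 735 CPM in blue light libraries A, B and C, against 530 CPM in both natural light libraries. All blue light libraries lay above both natural light libraries, and the log2FC of 0.30 did not pass (SE 0.11, 95% interval 0.038 to 0.56, adjusted p = 0.244). Of the 8 Trpm genes 0 passed in edgeR, DESeq2 or limma-voom, 3 had an unadjusted p under 0.05 in edgeR, and Trpm2 had the smallest p (log2FC 0.51, adjusted p = 0.240). Trpm1 is also expressed in pigment cells, and of 9 pigment cell and retinal pigment epithelium genes 0 passed in edgeR, 8 had a positive log2FC and the median was 0.20. Their summed level was 1588, 1986 and 1949 CPM in blue light libraries A, B and C and 1465 and 1875 CPM in natural light libraries A and B. The tyrosinase gene Tyr was the only one with an unadjusted p under 0.05 in edgeR (log2FC 0.35, adjusted p = 0.131) and was called by DESeq2, while limma-voom called 0. The part of pigment cells in the Trpm1 value was not tested.

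An intron of Trpm1 carries the microRNA miR-211, whose 5p arm differs from that of miR-204, carried by Trpm3, at 1 of 22 positions (U17A, counted from the 5′ end with the miR-211 base first). Their mature sequences from RefSeq (GRCm38.p6) are shown because they share a seed, bases 2 to 8, given in capitals. They lie on the plus strand at chr7:64205831-64205852 and chr19:22750610-22750631.
mmu-miR-211-5p: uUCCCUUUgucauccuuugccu
mmu-miR-204-5p: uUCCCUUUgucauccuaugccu

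In the microRNA libraries miR-211-5p stood at 7867, 8182 and 8673 CPM in blue light libraries A, B and C, against 9467 and 9995 CPM in natural light libraries A and B. Every blue light library lay below both natural light libraries on this TMM scale. The share of all tested microRNAs whose groups did not overlap was not computed, so this has no background beside it. The log2FC of miR-211-5p was -0.24 (SE 0.14, 95% interval -0.55 to 0.067, adjusted p = 0.544 over 641 microRNAs), or -0.084 with library totals as the scaling, which moved the median log2FC of all tested microRNAs to 0.17, against 0.014 with TMM. That of the scarcer arm miR-211-3p was 0.085 (adjusted p = 0.901). The arms of miR-204 had a log2FC of 0.050 for 5p (adjusted p = 0.901) and -0.18 for 3p (adjusted p = 0.851), and their host Trpm3 had one of 0.086 (adjusted p = 0.712). Of all tested microRNAs edgeR called 0.624%. Of the 4 arms it called 0, with 0 at an unadjusted p under 0.05, and DESeq2 and limma-voom called 0.

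Nyctalopin (Nyx, chromosome X from 13461090 to 13492820) is the leucine-rich repeat protein that places TRPM1 at the dendritic tip. It had 28.3, 31.6 and 33.2 CPM in blue light libraries A, B and C, against 24.9 and 22.3 CPM in natural light libraries A and B. All blue light libraries were above both natural light libraries. The log2FC of 0.39 was the highest of the 10 genes and did not pass in edgeR (SE 0.11, 95% interval 0.13 to 0.66, adjusted p = 0.155), whereas DESeq2 called it (log2FC 0.41, adjusted p = 0.0231).

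Lrit3, on chromosome 3 from 129783941 to 129804136, encodes a transmembrane protein that in mouse retina is made by photoreceptors and is needed for nyctalopin and TRPM1 at the bipolar side. It had 23.2, 33.7 and 30.4 CPM in blue light libraries A, B and C, against 57.0 and 49.3 CPM in natural light libraries A and B. The highest blue light library was well below the lowest natural light library. The log2FC was -0.87 (SE 0.17, 95% interval -1.29 to -0.45), the most negative of the 10, and the adjusted p was 0.0737 in edgeR and 0.000420 in DESeq2. The other leucine-rich repeat genes of the synapse, Lrit1 and Lrit2, had log2FC of -0.28 (adjusted p = 0.380) and -0.95 (adjusted p = 0.130), and DESeq2 called Lrit2. All 3 Lrit genes were on the low side and Nyx on the high side. In each the groups did not overlap, as in 35.6% of all tested genes. The span of Lrit1 overlaps those of Lrit2 and Rgr, which held 27.7% and 36.3% of the counts of their pairs with Lrit1. Lrit1 and Lrit2 may therefore not be separate measures, and with overlapping genes summed the log2FC of Lrit1 was -0.39 (adjusted p = 0.433 in edgeR).

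Gpr179, on chromosome 11 from 97332109 to 97352356, encodes the orphan receptor that anchors the RGS proteins. It had 250, 272 and 288 CPM in blue light libraries A, B and C, against 247 and 221 CPM in natural light libraries A and B. The lowest blue light library stood just above the highest natural light library, and the log2FC was 0.21 (SE 0.092, 95% interval -0.018 to 0.44, adjusted p = 0.341). Its close relative Gpr158 had a log2FC of 0.10 (adjusted p = 0.581).

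Rgs7 and Rgs11 encode the 2 RGS proteins that speed the switching off of Go in these cells, and either can carry part of the function alone. Rgs7 (chromosome 1 from 175059076 to 175492862) had 31.3, 31.8 and 31.2 CPM in blue light libraries A, B and C, against 27.6 and 29.6 CPM in natural light libraries A and B. The groups did not overlap, and the log2FC was 0.14 (SE 0.079, adjusted p = 0.463). Rgs11 (chromosome 17 from 26202527 to 26211324) had 22.9, 21.9 and 27.0 CPM in blue light libraries A, B and C, against 24.5 and 20.0 CPM in natural light libraries A and B. Its groups overlapped, with a log2FC of 0.10 (SE 0.14, adjusted p = 0.781) that turned to -0.035 without natural light library B. The log2 ratio of Rgs11 to Rgs7 was -0.40 ± 0.17 under blue light (n = 3) and -0.37 ± 0.28 under natural light (SD, n = 2), a difference below the spread. Of the 4 genes of this RGS family 1 fell, Rgs9, the photoreceptor member, with a log2FC of -0.79 (SE 0.10, adjusted p = 0.0283).

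Prkca, on chromosome 11 from 107933387 to 108343888, encodes protein kinase C alpha, which shapes the rod bipolar response and also acts in many other cell types. It had 234, 248 and 281 CPM in blue light libraries A, B and C, against 437 and 445 CPM in natural light libraries A and B. Every blue light library was far below both natural light libraries, which were close to each other. Prkca fell under blue light with a log2FC of -0.79 (SE 0.093, 95% interval -1.02 to -0.57, adjusted p = 0.0218), a level 1.73-fold lower under blue light. The call was lost in edgeR without blue light library B (adjusted p = 0.0621) or blue light library C (0.0718). Those fits called 277 and 11 genes in all, against 421 with every library, so most other calls were lost without C too. The call was also lost without natural light library A or B, fits with a lone control library. The log2FC of Prkca stayed between -0.87 and -0.76 in these fits. Among the 9 protein kinase C genes Prkca was the only one called, and Prkcb, another classical isoform, stood at a log2FC of 0.46 (adjusted p = 0.0877). Prkcb and Prkce were also called by DESeq2, both higher.

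**Figure D2:**
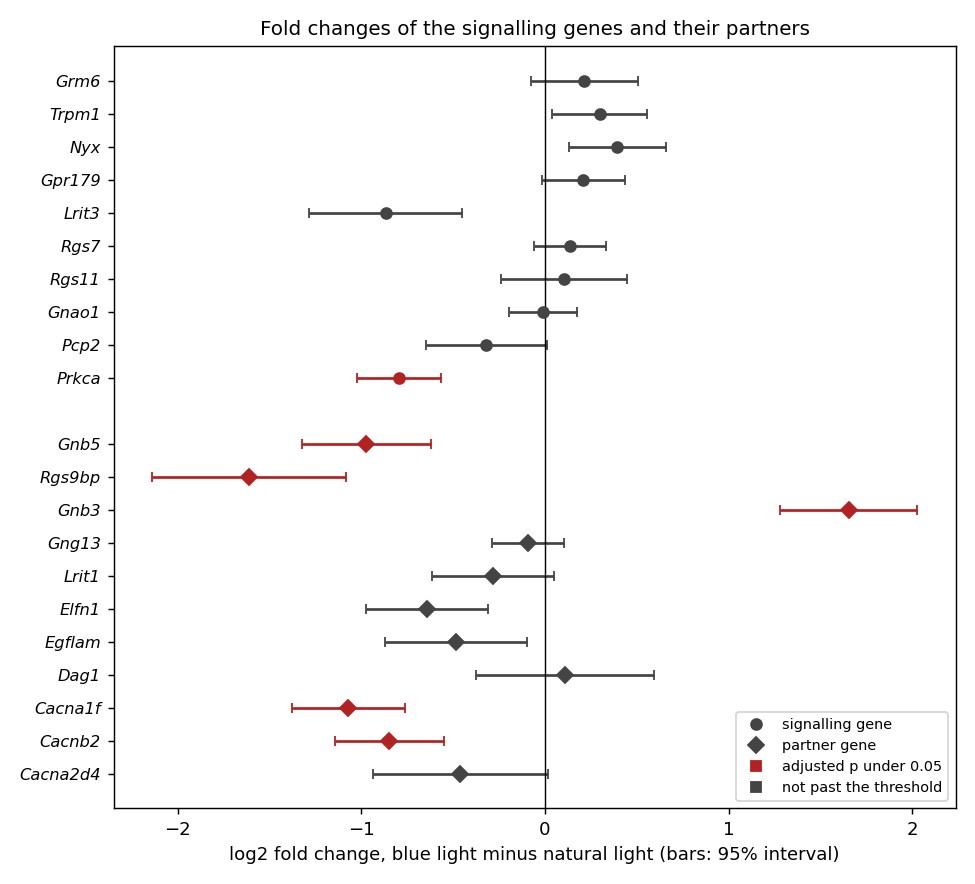
Log2 fold change of the 10 signalling genes (circles) and 11 partner genes (diamonds), blue light minus natural light, with unadjusted 95% intervals; red marks genes with an adjusted p under 0.05. Prkca at -0.79 is the only red circle, and among the partners Gnb3 at 1.65 is the only red point to the right of 0.

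Promoter sequences are shown for Lrit3 and Prkca, the most lowered of the 10, and for Trpm1, the only one of the 9 with a promoter in the table to hold the letters TAATCC, read by the photoreceptor and bipolar factors CRX and OTX2. Each covers 250 bases before to 50 bases after the start (RefSeq, GRCm38.p6), in the direction of the gene, with TAATCC or its reverse complement GGATTA and the palindrome TAATTA in capitals. They are the minus strand windows chr3:129804087-129804386 and chr11:108343839-108344138 and the plus strand window chr7:64153585-64153884.
Lrit3: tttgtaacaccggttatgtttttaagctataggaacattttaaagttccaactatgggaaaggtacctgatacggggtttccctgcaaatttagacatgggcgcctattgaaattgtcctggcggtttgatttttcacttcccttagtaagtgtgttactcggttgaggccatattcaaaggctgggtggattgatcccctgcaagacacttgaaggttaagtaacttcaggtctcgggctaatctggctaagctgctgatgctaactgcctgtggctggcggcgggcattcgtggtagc
Prkca: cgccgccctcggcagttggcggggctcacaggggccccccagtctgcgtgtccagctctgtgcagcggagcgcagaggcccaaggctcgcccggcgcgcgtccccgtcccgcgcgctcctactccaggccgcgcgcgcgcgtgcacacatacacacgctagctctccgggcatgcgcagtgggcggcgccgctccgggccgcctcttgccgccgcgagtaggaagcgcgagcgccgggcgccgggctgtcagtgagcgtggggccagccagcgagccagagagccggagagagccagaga
Trpm1: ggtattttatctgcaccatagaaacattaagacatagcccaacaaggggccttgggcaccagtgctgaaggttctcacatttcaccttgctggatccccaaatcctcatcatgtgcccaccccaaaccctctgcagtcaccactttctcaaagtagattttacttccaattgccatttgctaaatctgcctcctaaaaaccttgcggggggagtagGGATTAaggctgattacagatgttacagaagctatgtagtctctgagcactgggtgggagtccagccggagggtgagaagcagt

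Of the 10 genes 9 had a promoter in the table, and Rgs11 had none. The match was in the first of 2 Trpm1 windows, the one shown, on the reverse strand and began 34 bases before the start, at position -34, and the other Trpm1 window held none. Searched on both strands, TAATCC was in 1 of the 9 genes and in 7.06% of all 32851 windows of 300 bases. TAATTA, a homeodomain core, was also in 1 of the 9, in 1 of 4 Pcp2 windows, and in 5.29% of all windows. Because a gene can have several windows, counts per gene and shares per window are unlike measures, and no enrichment can be read from them. Neither the Lrit3 nor the Prkca window held either set of letters.

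Ratios between genes of the same library do not depend on how libraries are scaled. Relative to Grm6, the log2 ratio of Prkca was 1.65, 1.43 and 1.58 in blue light libraries A, B and C, against 2.52 and 2.60 in natural light libraries A and B. The linear ratio was 2.01-fold lower under blue light, and the groups did not overlap. For Lrit3 the log2 ratio to Grm6 was -1.69, -1.45 and -1.63 in the blue light libraries, against -0.42 and -0.58 in the natural light libraries, a difference of -1.09. Pcp2 had a difference of -0.53, Gnao1 one of -0.22 and Nyx one of 0.19, each with groups that did not overlap. All ratios to Grm6 also carry the shift of Grm6 itself (log2FC 0.21, not called). Taken alone, Gnao1 had a log2FC of -0.011 with groups that overlapped, and Prkca was 1.73-fold lower. For Trpm1, Gpr179, Rgs7 and Rgs11 the groups overlapped, with differences between -0.10 and 0.086. Over the 10 ratios computed, the two-sided exact permutation p was 0.2 for the 5 ratios that did not overlap, which is the smallest p that 3 against 2 libraries allow, and adjusted p was 0.4, so this exact test cannot call any ratio here.

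**Figure D3:**
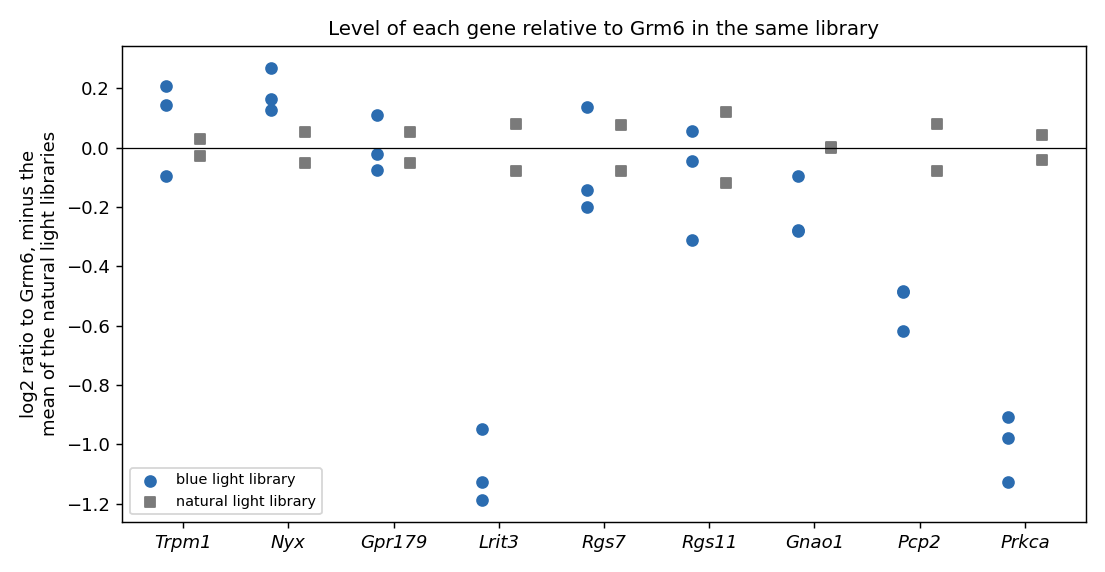
Log2 ratio of each gene to Grm6 in the same library, after subtraction of the mean of the natural light libraries, with blue light libraries as circles and natural light libraries as squares. Lrit3 and Prkca lie about 1 log2 unit below 0 in all 3 blue light libraries, and Pcp2 lies between them and the genes near 0.

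The genes nearest to Grm6 among 14773 candidates, by the root mean square difference of log2 CPM centred on each gene's mean over the 5 libraries, were Cfap74, A2m, Pdcd2l, Pfkl and Ccdc85b, at distances of 0.022 to 0.035. Gpr179 was the nearest of the other 9 signalling genes to Grm6, at 0.069. Nearest to Prkca were Atp7b, Zscan29, Rnf150, Ggt1 and Ap2a2, at distances of 0.024 to 0.067. Of these 5 all but Ggt1 (adjusted p = 0.0619) were called lower in edgeR. They were picked for values that vary as those of Prkca do, so calls in the same direction follow from that choice. With so many candidates and 5 libraries, close matches to any pattern can be found, and these are given as a description.

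The partner genes hold the rest of the postsynaptic machinery and the presynaptic proteins that line up with it. Gnb5, the beta subunit bound to RGS7 and RGS11 and also to RGS9 of photoreceptors, had 97.6, 136 and 114 CPM in blue light libraries A, B and C, against 237 and 218 CPM in natural light libraries A and B. It fell with a log2FC of -0.97 (SE 0.14, adjusted p = 0.0350). Rgs9bp, the membrane anchor of RGS9 in photoreceptors and of RGS11 in ON bipolar cells, fell with a log2FC of -1.61 (SE 0.22, adjusted p = 0.0285). It had 108, 187 and 148 CPM in the blue light libraries, against 450 and 452 CPM in the natural light libraries. Both are genes that ON bipolar cells share with photoreceptors, and in neither did the groups overlap.

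The beta and gamma subunits that pair with Go in ON bipolar cells did not move alike. Gnb3, which cones use as well, had 242, 323 and 306 CPM in blue light libraries A, B and C, against 98.8 and 85.6 CPM in natural light libraries A and B. It rose with a log2FC of 1.65 (SE 0.15, adjusted p = 0.0172). It was the only partner called higher. Gng13 had 32.5, 30.7 and 33.0 CPM in the blue light libraries, against 33.3 and 35.0 CPM in the natural light libraries, where the groups did not overlap, and a log2FC of -0.091 (adjusted p = 0.644). Its span overlaps that of Chtf18, which held 23.4% of the counts of the pair, and with overlapping genes summed the log2FC was -0.22 (adjusted p = 0.323).

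On the presynaptic side, 2 subunits of the photoreceptor calcium channel fell. Cacna1f, the pore, fell with a log2FC of -1.07 (SE 0.13, adjusted p = 0.0218) and Cacnb2, the beta subunit, with one of -0.85 (SE 0.12, adjusted p = 0.0318). Cacna2d4, the alpha2delta subunit, had 191, 306 and 268 CPM in blue light libraries A, B and C, against 336 and 366 CPM in natural light libraries A and B (log2FC -0.46, adjusted p = 0.321). The adhesion protein Elfn1, which binds mGluR6 across the cleft, had a log2FC of -0.64 (adjusted p = 0.0882) and was called by DESeq2 (adjusted p = 0.00240). Egflam, which encodes pikachurin, had -0.49 (adjusted p = 0.210), and its receptor gene Dag1 had 0.11 (adjusted p = 0.845), -0.14 without natural light library A. Of the 11 partners 5 passed, 4 of them lower and 1 higher, against 2.22% of all tested genes. The median log2FC of the 11 was -0.49, and the list was chosen with earlier results of these data known. In edgeR 0 of these 5 calls held without blue light library C, where 11 genes were called in all, against 421 with every library. Without blue light library B, where 277 genes were called in all, 4 held and Cacnb2 missed the threshold (log2FC -0.91, adjusted p = 0.0501). The calls were also lost without natural light library A or B, fits with a lone control library. Scaled by library totals, Gnb5 (log2FC -0.93, adjusted p = 0.0625) and Cacnb2 (log2FC -0.80, adjusted p = 0.0616) were no longer called.

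**Figure D4:**
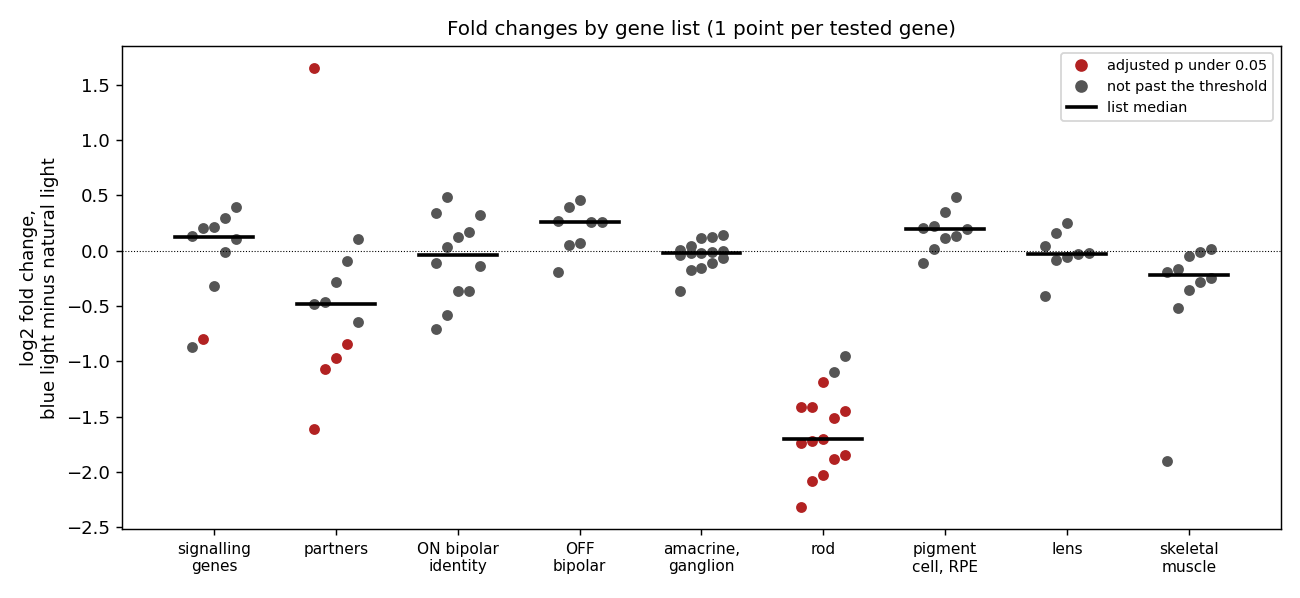
Log2 fold change of every tested gene of 9 gene lists, blue light minus natural light, with the list median as a bar and red for an adjusted p under 0.05. The signalling genes sit around a median of 0.12 with Lrit3 and Prkca below, while the rod genes all lie below 0 around a median of -1.70.

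Other genes of bipolar cells were set beside the signalling genes. Of 12 ON bipolar identity genes 0 passed in edgeR, 6 had a positive and 6 a negative log2FC, and the median was -0.038. In edgeR 6 of them had an unadjusted p under 0.05, as did 3094 of all 18988 tested genes. Limma-voom called 0, and DESeq2 called 5 of the 12, 2 higher and 3 lower, the lower ones being Sebox, Bhlhe23 and Gabrr1. In edgeR the log2FC was -0.70 for Sebox (adjusted p = 0.0759) and -0.58 for Bhlhe23 (adjusted p = 0.0824), a transcription factor needed for rod bipolar cells. Of 8 OFF bipolar genes edgeR and limma-voom called 0, with 1 at an unadjusted p under 0.05 in edgeR, and DESeq2 called 1. There 7 had a positive log2FC, the median was 0.26, and that gene was the kainate receptor gene Grik1 (log2FC 0.39, adjusted p = 0.186 in edgeR). Whether ON and OFF bipolar genes differed from each other was not tested.

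Rod genes moved with the groups. All 15 on the list had a negative log2FC with groups that did not overlap, 13 fell in edgeR, and none was at 0 in all libraries. Those that fell included Gnat1, Pde6b, Pde6g, Cnga1, Cngb1, Sag, Nrl, Nr2e3, Prph2, Rom1, Gngt1 and Reep6, with log2FC between -2.08 and -1.18 for those named, and DESeq2 called all 15. The summed level of the 15 was 4954, 8984 and 7112 CPM in blue light libraries A, B and C, against 26636 and 25181 CPM in natural light libraries A and B. Blue light library A had the lowest rod sum and also the lowest level of Lrit3, Pcp2, Prkca, Gnb5, Rgs9bp and Cacna1f. Gnao1, which was not called, was also lowest in blue light library A, and of the blue light libraries Grm6, Nyx and Gpr179 were lowest there too. Among the blue light libraries, B had the highest rod sum and the highest Lrit3, while Prkca and Pcp2 were highest in library C. The part of the rods in these values was not tested. Of 15 amacrine and ganglion cell genes, the other inner retinal neurons, edgeR and limma-voom called 0, and the median log2FC was -0.017. The glycine transporter gene Slc6a9 was the only one with an unadjusted p under 0.05 in edgeR (log2FC -0.36, adjusted p = 0.135), and DESeq2 called it. With libraries scaled to those genes, the log2FC of Prkca was -0.74 (adjusted p = 0.0353), that of Lrit3 -0.81 (adjusted p = 0.0735) and that of Grm6 0.26 (adjusted p = 0.4).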

How the data were processed

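RNA was isolated with Trizol and depleted of ribosomal RNA by probe capture, then fragmented and randomly primed, per the labels' protocols. Tools named in the submitters' processing notes, with no role given, are HISAT2, StringTie, bcl2fastq 2.0, limma and DESeq2, and the named build is mm10. For the microRNA libraries the steps are not stated in the labels used here. The mRNA table deposited by the authors holds whole numbers that were read as estimated counts, one row per symbol and with no normalisation; no counting intervals are given for them. The deposited microRNA values are counts per mature microRNA, with totals of 8355432 to 10875487.

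Both assays were tested with edgeR 4.0.16 in R 4.3.3 (TMM, filterByExpr by group, quasi-likelihood F-test, two-sided, Benjamini-Hochberg over all tested genes). Log2 CPM used a prior count of 2, and ratios a pseudocount of 0.5. Alternatives were DESeq2 1.42.0, limma-voom (limma 3.58.1), other scalings and filters, a pseudocount of 5, values divided by 4, overlapping genes summed, a block on the letter and each library left out, where a lone control was assumed to vary like the blue light libraries. The members and lists were chosen with earlier results of these data known. Genes to name were the members, those called in another list or, with no call, up to 3 with the smallest p, the 5 nearest to Grm6 and to Prkca, and the arms of miR-211 and miR-204. The other family members and partners named, and genes that only DESeq2 called, were picked with their values in view. The test was checked on simulated counts. Positions and sequences are from RefSeq tables (GRCm38.p6), matched by symbol for 10 of 10 members. Some named-gene results are not reported here.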

Additional observations from a re-analysis of the deposited data

How the results depend on the processing

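Among the 10 signalling genes edgeR's call of Prkca held in 11 of 16 alternatives, and its log2FC ran from -0.87 to -0.72 over all 16. DESeq2 called 3 of the 10 (Nyx, Lrit3 and Prkca). With each library left out in turn the count was 0 to 1 among the signalling genes and 0 to 5 among the partners. Deviations from the group means correlated at -0.18 between the 2 samples of letter A and at -0.15 between those of letter B. The deviations of 2 controls mirror each other, so these values are not separate checks and cannot settle whether the letters mark pairs. With the letter as a replicate block, which leaves few degrees of freedom, edgeR called 0 of the 10, 0 of the 11 partners and 0 of all genes, where 1455 had an unadjusted p below 0.05. Over all genes edgeR called 421, DESeq2 called 1729, and edgeR called 0 to 311 with a library left out. With library totals as the scaling 3 partners were called (Rgs9bp, Gnb3 and Cacna1f). The median log2FC of the 10 stayed between 0.048 and 0.19. The log2FC of Gnao1 turned to 0.0081 with DESeq2's size factors, 0.0081 in DESeq2, 0.034 with library totals, 0.041 with scaling to amacrine and ganglion cell genes, and at most 0.050 with a library left out (lowest -0.040). Leave-one-out values ran from -0.035 to 0.28 for Rgs11 and -0.14 to 0.44 for Dag1. With a library left out the log2 ratios ran from -0.050 to 0.057 for Gpr179, -0.17 to 0.0088 for Rgs7 and -0.22 to 0.019 for Rgs11, each to Grm6, and -0.23 to 0.16 for Rgs11 to Rgs7. With a library left out the log2FC of microRNA arms ran from -0.0032 to 0.19 for miR-211-3p, -0.029 to 0.11 for miR-204-5p and -0.39 to 0.081 for miR-204-3p, and miR-204-5p stood at -0.030 with the block. With library totals the values were -0.084 for miR-211-5p, 0.24 for miR-211-3p and 0.21 for miR-204-5p. The cause was not tested for any of these. The median over all mRNA genes moved by at most 0.051 (log2) with another scaling.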
